A study of Mus musculus with 11 samples.

Results

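The genes described here are 6 long noncoding RNAs that are known for staying in the nucleus or for being made in neurons: Malat1, Neat1, Miat, Meg3, Rmst and Snhg11. They were chosen by name, as rows of a table of 25311 genes, and 5 of the 6 had a row. Rmst was not analysed here. The list was drawn up with earlier results of these same counts in view, among them a lower Malat1 level in ω-6 than in ω-3 mice, so the tests below come from fits across all genes and do not count as independent support for the choice.

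The counts came from single cells of the retina of C57BL/6J mice at postnatal day 10, prepared by papain dissociation and inDrop, a droplet method that tags each captured RNA molecule with a unique molecular identifier (UMI) at its 3′ end. Control mice (n = 3) had received the vehicle PBS. Phase I ROP mice (n = 3), a model of the early phase of retinopathy of prematurity, had received streptozotocin (STZ). This drug destroys the insulin-producing cells of the pancreas and raises blood glucose. The study names littermates in a sentence that may cover these mice and the controls. The ω-3 mice (n = 2) and ω-6 mice (n = 3) had all received STZ and are described in the study as littermates. Their nursing dams ate a diet rich in ω-3 or in ω-6 long-chain polyunsaturated fatty acids. For its STZ model the study kept litters smaller than those without STZ, so that weight gain was equal. Whether Phase I ROP and control mice shared litters is therefore not clear. No mouse in the diet groups went without STZ, and the retinal pigment epithelium and anterior segment had been removed at dissection.

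Malat1 is an abundant RNA of nuclear speckles, the compartments that store splicing factors. Its 3′ end is made by RNase P, not by polyadenylation, and is held by a triple helix of U-rich motifs and an A-rich tract. Neat1 is the scaffold of paraspeckles. Its long form ends in the same manner as Malat1, and its short form is polyadenylated. Miat, also called Gomafu, is a nuclear RNA of neurons that was studied in the choice of cell fate in the retina, and its repeats bind the splicing factor Sf1. Meg3 is expressed from the maternal copy of the imprinted Dlk1-Dio3 cluster, together with Rian and Mirg. Snhg11 carries small nucleolar RNAs in its introns and is rich in neurons.

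In the GENCODE M21 annotation of GRCm38, the build of the counts, Malat1 (ENSMUSG00000092341) lies on the minus strand at chr19:5795690-5802672 as a single exon of 6983 bases. Neat1 (ENSMUSG00000092274) lies 22035 bases away on the same strand, at chr19:5824708-5845478. Miat (ENSMUSG00000097767) is at chr5:112213228-112229395 on the minus strand, and its longest transcript has 7 exons and 9163 bases. Meg3 (ENSMUSG00000021268) is at chr12:109541001-109571726 on the plus strand, with 11 annotated transcripts, the longest of 5 exons and 14548 bases. Snhg11 (ENSMUSG00000044349) is at chr2:158375638-158386145 on the plus strand and is annotated as protein coding, with 5 exons and 5864 bases in its longest transcript.

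Droplet libraries are primed with oligo(dT), so the A-rich stretches of these RNAs matter for what can be counted. The lines below give the A-rich tract of Malat1 (exonic, chr19:5795958-5796098, minus strand, with runs of at least 5 T and the run of A in capitals) and the last 100 bases of the long form of Neat1 (exonic, chr19:5824708-5824807, minus strand, with runs of at least 4 T or A in capitals).
Malat1 A-rich tract: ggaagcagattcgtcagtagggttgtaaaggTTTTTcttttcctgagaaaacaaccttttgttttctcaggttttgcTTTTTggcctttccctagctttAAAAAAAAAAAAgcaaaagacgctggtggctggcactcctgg
Neat1 long form: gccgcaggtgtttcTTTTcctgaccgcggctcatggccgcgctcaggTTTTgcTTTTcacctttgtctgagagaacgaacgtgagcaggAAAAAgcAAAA
The run of 12 A in Malat1 spans bases 6674 to 6685 of its longest transcript, ahead of the annotated end.

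The annotated 3′ ends of Malat1 (chr19:5795690-5795789, minus strand), of the short form of Neat1 (chr19:5842307-5842406, minus strand) and of Meg3 (chr12:109571627-109571726, plus strand) each hold AATAAA, the polyadenylation signal, which is in capitals below.
Malat1 annotated end: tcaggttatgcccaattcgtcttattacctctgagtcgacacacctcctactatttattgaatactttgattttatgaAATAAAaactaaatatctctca
Neat1 short form: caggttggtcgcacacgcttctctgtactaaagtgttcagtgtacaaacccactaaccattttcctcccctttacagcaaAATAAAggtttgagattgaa
Meg3: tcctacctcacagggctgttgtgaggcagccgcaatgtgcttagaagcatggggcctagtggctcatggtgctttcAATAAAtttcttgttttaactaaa
AATAAA was found in the last 40 bases of 22.9% of 30216 long noncoding transcripts, so its presence is common. The long form of Neat1 and the longest form of Miat did not hold these letters there. Runs of at least 8 A, searched on the transcript strand only, numbered 7 in Meg3, 3 in Snhg11, 1 in Malat1, and 0 in the long form of Neat1 and in Miat. Which of these stretches primed the counted molecules was not tested.

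The letters TACTAAC, the repeat of Miat that Sf1 binds, are in capitals in the next lines, which come from the longest Miat transcript at chr5:112217299-112217470 and chr5:112216742-112216822, both on the minus strand.
Miat repeats, first group: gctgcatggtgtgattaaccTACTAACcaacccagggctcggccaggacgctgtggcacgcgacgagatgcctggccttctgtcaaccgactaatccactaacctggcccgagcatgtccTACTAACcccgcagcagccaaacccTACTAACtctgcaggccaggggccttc
Miat repeats, second group: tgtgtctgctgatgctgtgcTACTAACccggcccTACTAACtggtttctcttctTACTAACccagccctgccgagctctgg
Searched on the transcript strand, Miat held 6 copies. Of 7040 annotated transcripts of at least 5000 bases, 15.7% held at least 1 copy and 3, or 0.0426%, held at least as many as the longest Miat transcript. That transcript, of 9163 bases, is itself above this length.

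A total of 20033 cells with more than 300 detected genes were kept, with 2563064 to 6516478 UMIs per mouse. The median per cell was 1550 to 2341 UMIs in control and 1003.5 to 1190 in Phase I ROP mice, and 1154 barcodes appeared in more than 1 library. Clusters were named from marker genes and are called by the class that they resembled: 8695 rod-like, 1126 cone-like, 3596 bipolar-like, 3287 amacrine-like and 1425 Müller glia-like cells, and 6 classes with 31 to 113 cells. Each level below is the UMIs of a gene per 1000000 UMIs (CPM) of the summed cells of a class in a mouse, which compares a gene between samples but not 1 gene with another, since nothing was scaled to length. In summed counts, fewer molecules per cell and fewer positive cells cannot be told apart. The 3 control libraries stood apart from the other 8 in RNAs unrelated to the list. The small nuclear RNA Rn7sk was at 193 to 290 CPM in control mice and at 1.15 to 16.2 CPM in the other 8, the mitochondrial ribosomal RNA mt-Rnr2 was at 28195 to 41188 against 3060 to 8232 CPM, and the immediate early gene Fosb was at 0.390 to 0.890 against 116 to 231 CPM. Treatment and library cannot be told apart in the comparison with control, and no library of the control group was without this difference.

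Meg3 differed widely in level between cell classes. Summed over all mice it reached 5400 CPM (95% Poisson interval 5281 to 5522, counting error only) in the 96 retinal ganglion cell-like cells, 1772 CPM in amacrine cells, 946 CPM in the 31 horizontal cell-like cells and 488 CPM in bipolar cells. Rods held 22.1 CPM (19.5 to 25.1) and microglia-like cells 18.9 CPM (3.90 to 55.2). Within mice, Meg3 was higher in amacrine than in bipolar cells in 11 of 11 mice, with a median ratio of 3.34, and higher in bipolar cells than in rods in 11 of 11. These are descriptions, since the classes were formed from the same cells. The 10 amacrine markers, among them Gad1 and Tfap2a, were all detected in rods as well, with a sum of 229 to 383 CPM in control and Phase I ROP mice, and the share of free RNA in the low Meg3 level of rods was not tested.

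**Figure D1:**
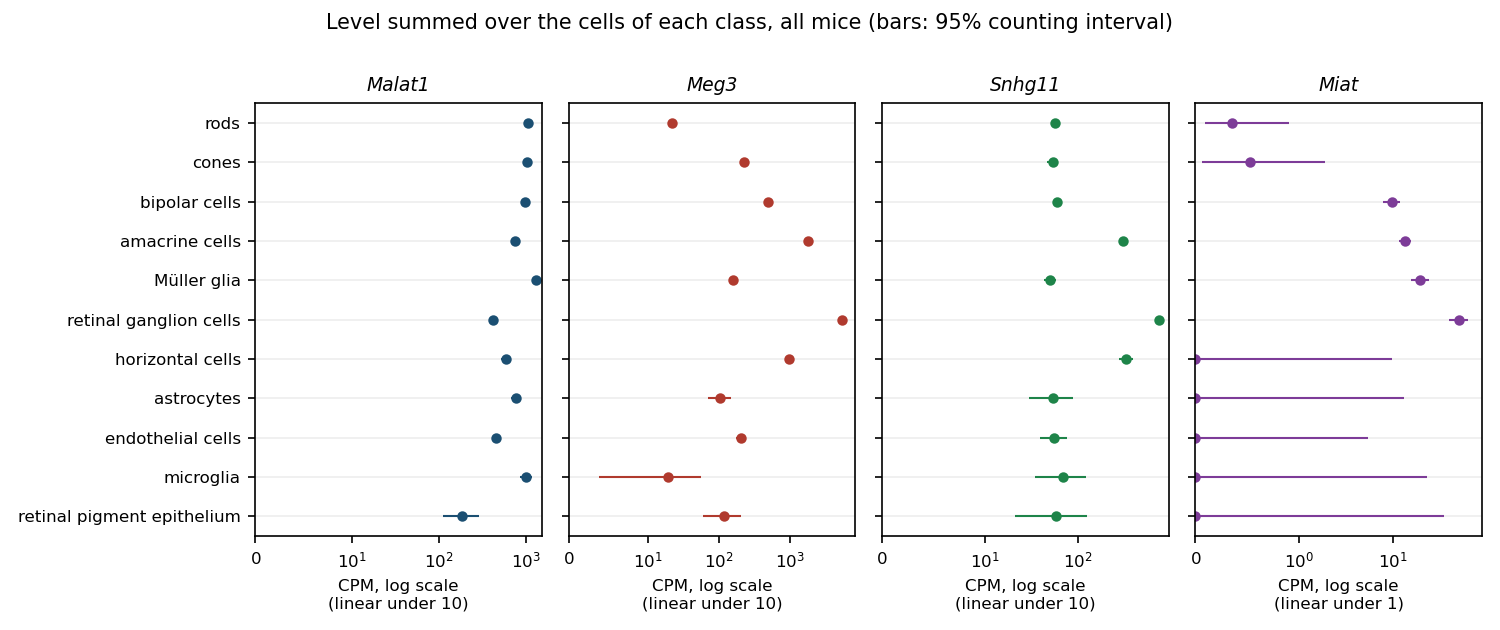
Level of Malat1, Meg3, Snhg11 and Miat in 11 cell classes, as CPM on a log axis summed over all 11 mice. Points are the pooled values and bars their 95% Poisson intervals, which cover counting error only. Meg3 runs from 18.9 CPM in microglia-like cells to 5400 CPM in retinal ganglion cell-like cells, and Malat1 from 183 CPM in pigment epithelium-like cells to 1309 CPM in Müller glia.

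Snhg11 and Miat were also highest in ganglion cell-like cells. Snhg11 was at 750 CPM there (706 to 796), at 332 CPM in horizontal cells (277 to 396) and at 307 CPM in amacrine cells, which lies inside that interval, and it was higher in amacrine cells than in rods, cones, bipolar cells and Müller glia in 11 of 11 mice. Miat was at 51.4 CPM in ganglion cell-like cells (40.3 to 64.5), 19.8 in Müller glia, 13.5 in amacrine and 9.83 in bipolar cells. The ω-3 mouse 1 held 38 of the 78 UMIs in Müller glia and 45 of the 88 in bipolar cells, and without it the pooled levels were 12.6 CPM in Müller glia, 12.6 CPM in amacrine and 5.42 CPM in bipolar cells. In control mice the mean was 6.16 CPM in amacrine cells and 3.88 CPM in Müller glia, and in Phase I ROP mice 19.3 and 10.1 CPM, so the order of these classes was not the same in every group. It had 4 UMIs in rods and 2 in cones over all mice. Its count was 0 in rods of 10 mice, which allows up to 1.31 to 20.1 CPM per mouse (3 counts).

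Malat1 varied less between the 5 large classes than Meg3. In control mice it averaged 1571 ± 155 CPM in rods, 1504 ± 83.2 in Müller glia, 1426 ± 522 in cones and 1156 ± 175 in bipolar cells (SD, n = 3), and each neighbour in this order overlapped the next. Amacrine cells, at 819 ± 84.1 CPM, lay below all of them without overlap. Malat1 was lower in amacrine cells than in each of the other 4 large classes in 11 of 11 mice. In the 27 retinal ganglion cell-like cells of the control mice it was at 405 CPM (Poisson interval 346 to 473), and in their 50 endothelial-like cells at 819 CPM (710 to 939), the level of amacrine cells. The endothelial-like cells of the other groups held 309 CPM in Phase I ROP, 289 CPM in ω-3 and 190 CPM in ω-6 mice, from 12 to 26 cells and without a test. Neat1 was sparse, with 106 UMIs in all rods, and its pooled level was 44.1 CPM in microglia-like cells (7 UMIs, 17.7 to 90.8) and 26.4 CPM in endothelial-like cells (15.6 to 41.7). Its order among the 5 large classes could not be resolved, since every neighbour overlapped in every group.

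The RNAs also differed between clusters of the same class. Among amacrine clusters, that led by Cartpt, a neuropeptide gene, had a pooled Meg3 level of 2208 CPM, against 1272 CPM in that led by Prdm13 and Ebf3. The Cartpt cluster held 391 CPM of Snhg11 and 22.4 CPM of Miat, and the Prdm13 cluster 144 and 5.26 CPM. The highest Snhg11 level of an amacrine cluster, 621 CPM, was in that with the cholinergic genes Slc5a7 and Chat among its leading genes, where Miat had 0.969 CPM. Among bipolar clusters, Miat was at 12.6 CPM in that led by Pcp2 and Trpm1, genes of ON bipolar cells, and at 0.940 CPM in that led by Grik1 (6.86 and 1.02 CPM without ω-3 mouse 1), while Meg3 was at 399 and 771 CPM. Miat and Meg3 thus took opposite orders in the bipolar clusters and the same order in the 2 largest amacrine clusters.

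Setting Phase I ROP against control asks which RNAs differed between STZ-treated and vehicle-treated mice in each class. By the quasi-likelihood test of edgeR, adjusted over all genes after Benjamini-Hochberg, 3 of 3 members tested passed in rods, where 38.7% of 7312 genes passed (19.2% higher and 19.5% lower in Phase I ROP). In amacrine cells 3 of 4 passed (38.8% of 11315 genes, 18.3% higher and 20.5% lower), and in bipolar cells 3 of 3 (45.3% of 10019, 21.3% higher and 23.9% lower). In cones 1 of 2 passed (18.8% of 3125, 10.9% higher and 7.9% lower) and in Müller glia 0 of 3 (10.8% of 4855, 5.81% higher and 5.03% lower). Over all cells 2 of 5 passed (48.1% of 15964, 24.7% higher and 23.4% lower). Too few UMIs for the test were found for Neat1 in all 5 classes, for Miat in each of them but amacrine cells, and for Snhg11 in cones. In Müller glia 1 member, Meg3, had an unadjusted p under 0.05, as did 27.3% of the genes tested, and DESeq2 also called 0. A large share of all genes differed, so the calls are read gene by gene.

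**Figure D2:**
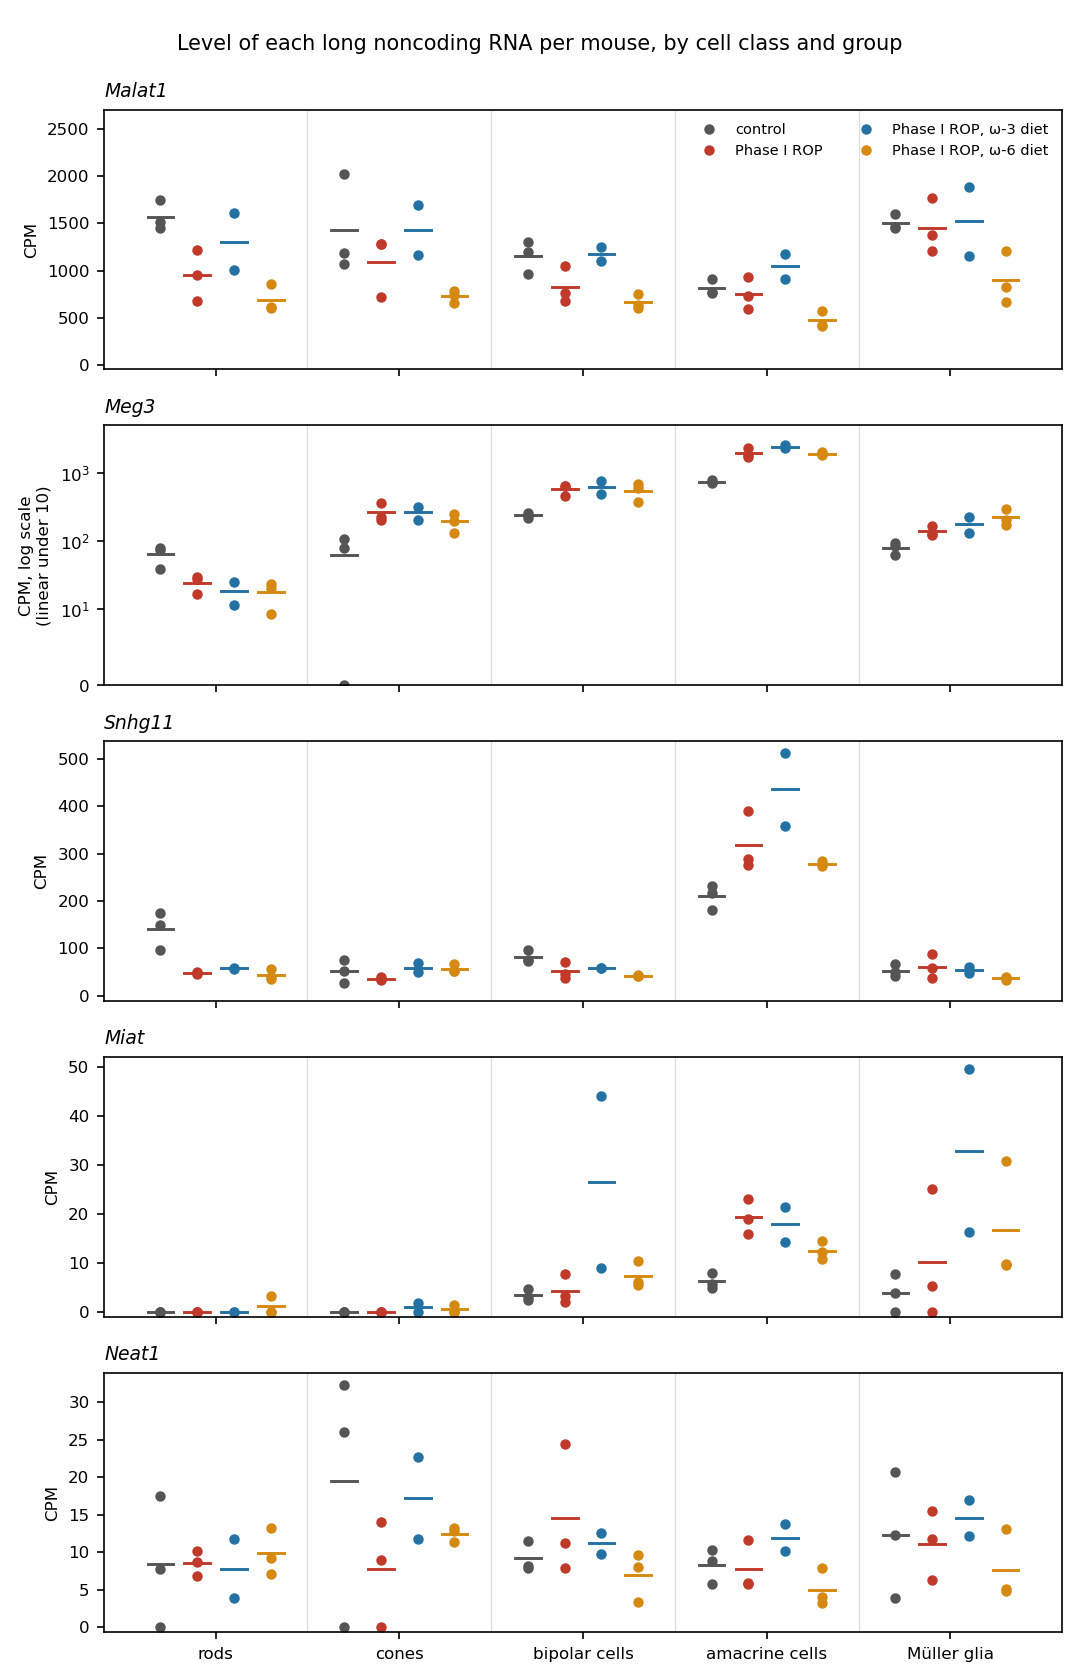
CPM of Malat1, Meg3, Snhg11, Miat and Neat1 in each mouse (points, with the group mean as a bar) in 5 cell classes and 4 groups; the axis of Meg3 is linear near 0 and logarithmic above. In rods, Malat1 sits between 679 and 1219 CPM in Phase I ROP and between 1455 and 1746 CPM in control mice, and Meg3 in amacrine cells sits between 1724 and 2296 against 724 and 790 CPM.

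Malat1 was lower in rods of Phase I ROP mice. The level was 1512, 1455 and 1746 CPM in the control mice and 1219, 951 and 679 CPM in the Phase I ROP mice. The groups did not overlap, as for 16.8% of the genes tested in rods that lay lower in Phase I ROP. The log2 fold change was -1.01 (SE 0.22, adjusted p = 0.0014). In the cluster led by Pde6b alone, control mice were at 1551 to 1640 and Phase I ROP mice at 677 to 1176 CPM. This cluster held 56.4% to 69.1% of the rods of control mice and 83.5% to 91.8% of those of Phase I ROP mice. The sum of the 7 rod markers, in contrast, was 13758 to 17501 CPM in control and 25771 to 36866 CPM in Phase I ROP rods. The part of this rise of the rod marker sum in the Malat1 result was not tested.

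In bipolar cells Malat1 was at 1199, 963 and 1305 CPM in control and at 1055, 761 and 675 CPM in Phase I ROP mice, so the groups overlapped, and the log2 fold change was -0.88 (SE 0.17, adjusted p = 0.0010). In amacrine cells the controls were at 773, 767 and 916 CPM and the Phase I ROP mice at 930, 731 and 598 CPM. This overlap was wide, and the fitted log2 fold change of -0.47 (SE 0.16, adjusted p = 0.032) rests on the scaling. The fit scales libraries by trimmed means (TMM), and scaling by UMI totals alone, which is the scale of CPM, moved the median over all genes to 0.37 in amacrine cells, 0.45 in bipolar cells and 0.35 in rods. On that scale the amacrine value was -0.11 (adjusted p = 0.58), and it also missed the threshold without Phase I ROP mouse 2 (-0.42), without Phase I ROP mouse 3 (-0.30) and without control mouse 3 (-0.37).

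Malat1 in cones was at 2025, 1068 and 1186 CPM in control and 1280, 1279 and 717 CPM in Phase I ROP mice, with a log2 fold change of -0.53 (SE 0.27, adjusted p = 0.16). The control values rest on 14, 13 and 46 cone-like cells. In Müller glia the levels were 1454, 1459 and 1600 against 1773, 1376 and 1205 CPM, with -0.16 (SE 0.19, adjusted p = 0.61). Neither class passed the test. Over all cells, 1132, 1295 and 1389 CPM stood against 1144, 880 and 690 CPM, with -0.75 (SE 0.18, adjusted p = 0.0058). Rods made up 216 of 925, 133 of 787 and 411 of 1493 cells of the control mice. In Phase I ROP mice they made up 1004 of 2039, 600 of 1397 and 1213 of 2312 cells. The part of this difference in the values over all cells, here and below, was not tested.

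Meg3 was higher in amacrine and bipolar cells of Phase I ROP mice and lower in rods. In amacrine cells the level was 790, 744 and 724 CPM in control mice and 1828, 2296 and 1724 CPM in Phase I ROP mice, a log2 fold change of 1.02 (SE 0.13, adjusted p = 5.3e-05). The groups did not overlap, as for 40.1% of the genes tested that lay higher in Phase I ROP. The ω-3 mice, at 2325 and 2567 CPM, and the ω-6 mice, at 2021, 1877 and 1868 CPM, also lay above every control. The same direction held in the 2 largest clusters: the Prdm13 cluster, 40.8% to 45.2% of control amacrine cells and 34.9% to 44.0% of Phase I ROP amacrine cells, had 505 to 594 CPM in control and 1254 to 1676 CPM in Phase I ROP mice. The Cartpt cluster, 38.8% to 42% and 36.0% to 44.1% of amacrine cells, had 828 to 1007 and 2263 to 2818 CPM. The 10 amacrine markers summed to 2835 to 3016 CPM in control and 4739 to 5480 CPM in Phase I ROP amacrine cells, and the part of this in the Meg3 result was not tested.

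In bipolar cells Meg3 was at 257, 244 and 217 CPM in control and at 653, 648 and 464 CPM in Phase I ROP mice, again without overlap (42.4% of genes tested lay higher in this way), with a log2 fold change of 0.89 (SE 0.15, adjusted p = 0.00042). Both bipolar clusters showed it, with 167 to 206 against 344 to 575 CPM in that led by Pcp2 and 370 to 441 against 842 to 905 CPM in that led by Grik1. The amacrine markers in bipolar cells, a measure of foreign RNA there, summed to 370 to 431 CPM in control and 698 to 788 CPM in Phase I ROP mice, with UMIs for all 10 markers in both groups. Their part in the Meg3 value was not tested.

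In cones Meg3 was at 81.0, 0 and 108 CPM in the controls, from 3, 0 and 10 UMIs, and at 226, 367 and 203 CPM in Phase I ROP mice, a log2 fold change of 1.61 (SE 0.50, adjusted p = 0.025). The count of 0 in control mouse 2 allows up to 78.1 CPM (3 counts). The call was lost without control mouse 1 (1.60, adjusted p = 0.053), without control mouse 2 (1.17, 0.075) and without Phase I ROP mouse 2 (1.48, 0.10). The amacrine markers in cones summed to 156 to 248 CPM in control and 290 to 375 CPM in Phase I ROP mice, with Tfap2b, Gad1, Slc32a1 and Chat at 0 in all control mice. In cones of the control mice, a 0 allows up to 32.4 to 81.0 CPM per gene and mouse (3 counts). In Müller glia Meg3 was at 93.1, 85.8 and 62.0 CPM in control and at 122, 170 and 130 CPM in Phase I ROP mice. These groups did not overlap, as for 20.8% of genes tested, but the log2 fold change of 0.70 (SE 0.29, adjusted p = 0.14) did not pass.

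In rods the direction of Meg3 was opposite. The controls were at 38.9, 80.5 and 75 CPM, from 10, 12 and 30 UMIs, and the Phase I ROP mice at 29.7, 28.0 and 16.6 CPM, from 29, 16 and 17 UMIs. The log2 fold change was -1.67 (SE 0.40, adjusted p = 0.0031). The amacrine markers in rods summed to 229 to 369 CPM in control and 285 to 383 CPM in Phase I ROP mice. In rods of clusters with rod markers among their leading genes, the value was -1.07 and missed the threshold (adjusted p = 0.074). Over all cells Meg3 was at 515, 634 and 474 CPM in control and 751, 1086 and 775 CPM in Phase I ROP mice, with 0.42 (SE 0.15, adjusted p = 0.037), a call lost without Phase I ROP mouse 2 (0.29), control mouse 1 (0.39) or control mouse 3 (0.35).

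Meg3 in the small neuronal classes is given as sums over a group, without a test. In retinal ganglion cell-like cells it was at 2193 CPM in control (27 cells, Poisson interval 2051 to 2343), 4941 CPM in Phase I ROP (20 cells, 4625 to 5272), 8009 CPM in ω-3 (22 cells) and 6221 CPM in ω-6 mice (27 cells). In horizontal cell-like cells it was at 398 CPM in control (287 to 538) and 990 CPM in Phase I ROP mice (830 to 1172). The control group had the lowest level in both classes.

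Snhg11 was lower in rods and bipolar cells of Phase I ROP mice. In rods the controls were at 97.1, 174 and 150 CPM and the Phase I ROP mice at 49.2, 50.7 and 46.0 CPM, a log2 fold change of -1.79 (SE 0.27, adjusted p = 6.0e-05). The groups did not overlap (16.8% of genes tested lay lower in this way). In bipolar cells the levels were 96.0, 75 and 74.2 against 72.2, 37.6 and 45.8 CPM, with -1.04 (SE 0.27, adjusted p = 0.0058), also without overlap (16% of genes tested lay lower in this way). By UMI totals alone the bipolar value was -0.63 (adjusted p = 0.054). In amacrine cells, where the RNA was most abundant among the large classes, the controls were at 218, 233 and 181 CPM and the Phase I ROP mice at 289, 391 and 276 CPM. The groups did not overlap (40.1% of genes tested lay higher in this way), yet the fitted change of 0.24 (SE 0.15, adjusted p = 0.22) did not pass, and by UMI totals alone it was 0.60 (adjusted p = 0.0068). In Müller glia Snhg11 was at 50.4, 42.9 and 67.2 against 37.7, 87.6 and 58.9 CPM, and its log2 fold change was -0.03 (SE 0.39, adjusted p = 0.97). In cones, 27.0, 52.1 and 75.5 CPM in control and 40.7, 32.9 and 36.2 CPM in Phase I ROP mice came from 1 to 10 UMIs and were not tested. Over all cells the log2 fold change was -0.29 (SE 0.14, adjusted p = 0.098), from 154, 171 and 141 against 134, 186 and 140 CPM.

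Miat was higher in amacrine cells of Phase I ROP mice. The controls were at 7.92, 4.85 and 5.70 CPM, from 8, 5 and 5 UMIs, and the Phase I ROP mice at 15.9, 23.1 and 18.9 CPM, from 15, 20 and 19 UMIs. The log2 fold change was 1.28 (SE 0.40, adjusted p = 0.021). With DESeq2 the adjusted p was 0.087, and the call was lost without Phase I ROP mouse 2 (1.16), Phase I ROP mouse 3 (1.32), control mouse 2 (1.11) or control mouse 3 (1.23). The Cartpt cluster held 16 of these UMIs in control and 45 in Phase I ROP mice, with 7.13 to 14.8 CPM in control and 30.1 to 35.9 CPM in Phase I ROP mice. In bipolar cells Miat had 2, 4 and 3 UMIs in control and 2, 1 and 5 in Phase I ROP mice, too few for the test. Over all cells Miat was at 4.42, 4.67 and 5.34 against 8.17, 8.97 and 7.74 CPM, without overlap (40.2% of genes tested lay higher in this way), and its log2 fold change of 0.51 (SE 0.31, adjusted p = 0.19) did not pass.

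Neat1 over all cells was at 8.48, 10.5 and 13.4 CPM in control and 9.98, 9.36 and 10.3 CPM in Phase I ROP mice, with a log2 fold change of -0.39 (SE 0.28, adjusted p = 0.26). The groups overlapped in each of the 5 classes. A change of Neat1 was not detectable at these counts, of 23 to 45 UMIs per mouse.

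**Figure D3:**
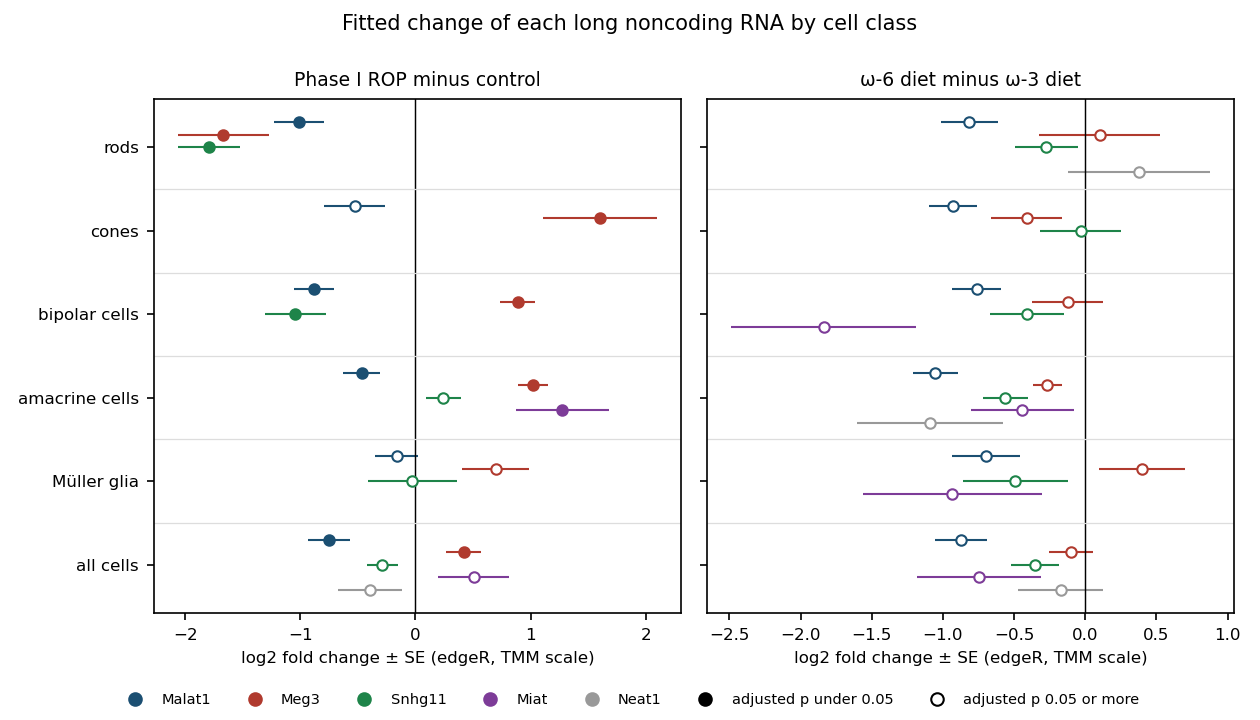
Log2 fold change with its standard error in 5 cell classes and over all cells, for Phase I ROP minus control (left) and ω-6 minus ω-3 (right); filled points have an adjusted p under 0.05. On the left, Meg3 lies at -1.67 in rods and at 1.02 in amacrine cells, and on the right the Malat1 points lie between -1.05 and -0.70 and none is filled.

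Whether the change differed between rods and another class was tested within mice, by the interaction of class and group with the mouse as a block. For Meg3 the change in bipolar cells exceeded that in rods by 2.65 on the log2 scale (SE 0.34, adjusted p = 0.00012), that in amacrine cells by 2.78 (SE 0.34, adjusted p = 7.0e-07) and that in Müller glia by 2.33 (SE 0.51, adjusted p = 0.0056). Of all genes, 2.26% passed the test against bipolar cells, 5.57% that against amacrine cells and 4.82% that against Müller glia. Meg3 was the member with the largest such differences in all 3 pairs. Snhg11 differed between amacrine cells and rods by 2.12 (SE 0.29, adjusted p = 4.2e-06) and between Müller glia and rods by 1.69 (SE 0.50, adjusted p = 0.045), while the 0.81 of bipolar cells (SE 0.38, adjusted p = 0.35) did not pass. Malat1 differed by 0.64 in amacrine cells (SE 0.17, adjusted p = 0.020) and 0.83 in Müller glia (SE 0.17, adjusted p = 0.0040), and by 0.21 in bipolar cells (SE 0.15, adjusted p = 0.59). The differences of Meg3 in bipolar and amacrine cells and of Snhg11 in amacrine cells passed under every alternative run, and the other 4 calls did not.

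The Snhg11 difference in Müller glia missed the threshold when any 1 of the 6 mice was left out (1.38 to 1.94), with median-of-ratios scaling (1.65), with UMI totals alone (1.58), with no filter on low counts (1.27) and in clusters named from leading genes (1.64). Meg3 in Müller glia missed it without Phase I ROP mouse 2 (2.25, adjusted p = 0.051) or mouse 3 (1.99, adjusted p = 0.056) and in clusters named from leading genes (1.74). Malat1 in amacrine cells missed it when any 1 Phase I ROP mouse was left out (0.26 to 0.36), without control mouse 3 (0.61), with no filter (0.53), with clustering without the members (0.56) and in cells with more than 500 genes (0.57). Malat1 in Müller glia missed it without Phase I ROP mouse 3 (0.60) and with no filter (0.41).

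A cluster of 1051 cells whose leading genes were the ribosomal RNA transcripts Gm42418, CT010467.1 and AY036118 was kept apart from the rods, although its rod marker levels would have named it so. It held 1.23% to 12.6% of the cells of a mouse. In this cluster Malat1 was at 10703, 11833 and 11067 CPM in the control mice and at 2283, 2419 and 265 CPM in the Phase I ROP mice. The ω-3 mice had 1310 to 1535 and the ω-6 mice 846 to 938 CPM. Control cells of the cluster thus had a higher CPM of Malat1 than any of the 5 large classes in any mouse. Meg3 there was at 635, 4745 and 3323 CPM in control and 1672, 113 and 33.1 CPM in Phase I ROP mice, the first of these, in Phase I ROP mouse 1, lying within the control range.

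The rod markers in the cluster summed to 2331 to 8180 CPM in control and 22702 to 31653 CPM in Phase I ROP mice, so the cluster did not hold the same RNA in both groups. Mitochondrially encoded protein genes made up 137221 to 261443 CPM of it in control and 41313 to 114184 CPM in Phase I ROP mice. The cluster carried 8.23%, 30.2% and 15.7% of all Malat1 UMIs of the control mice, against 1.88%, 4.74% and 0.333% in Phase I ROP mice. When it was counted as rods, the log2 fold changes in rods were -2.20 for Malat1, -4.52 for Meg3 and -2.34 for Snhg11.

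**Figure D4:**
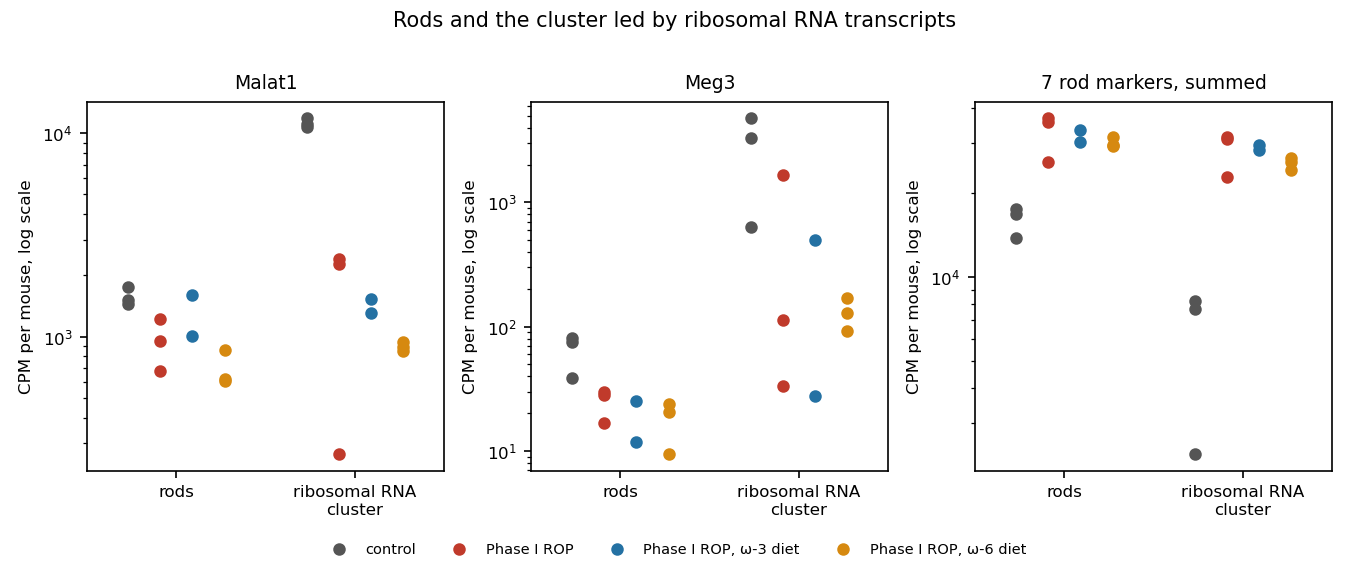
CPM of Malat1, Meg3 and the sum of 7 rod markers in rods and in the cluster led by ribosomal RNA transcripts, per mouse on a log axis, by group. In the cluster, the 3 control mice lie at 10703 to 11833 CPM of Malat1 and at 2331 to 8180 CPM of rod markers, apart from the other 8 mice on both.

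The table also counts Gm37376, a gene annotated on the strand opposite to Malat1 at chr19:5801941-5802393, inside the Malat1 exon. It had 5887 UMIs, and whether counting used the strand is not given in the sources used here, so its molecules and those of Malat1 cannot be told apart with certainty. Its count over all cells was 15.5% to 19.4% of that of Malat1 in control mice, 8.64% to 11.9% in Phase I ROP, 10.4% to 11.8% in ω-3 and 12.1% to 15% in ω-6 mice. Every control mouse lay above every other mouse. In amacrine cells the share was 14% to 18.7% in control and 6.64% to 8.55% in Phase I ROP mice. Gm37376 itself had a log2 fold change in Phase I ROP of -1.61 in rods (SE 0.25, adjusted p = 7.5e-05), -1.61 in bipolar cells (SE 0.31, adjusted p = 0.00098) and -1.47 in amacrine cells (SE 0.25, adjusted p = 0.00043). The genes opposite Meg3 and Miat, Gm26906 and Gm26953, had 529 and 10 UMIs.

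**Figure D5:**
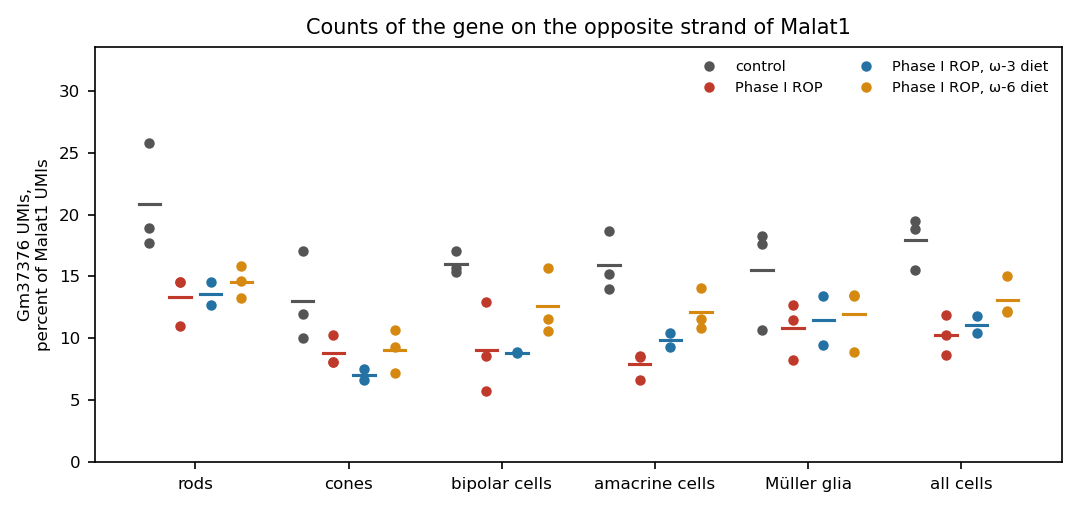
UMIs of Gm37376 as a percentage of those of Malat1 in each mouse, by cell class and group. Over all cells the control mice lie at 15.5% to 19.4% and the Phase I ROP mice at 8.64% to 11.9%.

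The comparison of ω-6 with ω-3 asks whether the fatty acids fed to the dam changed these RNAs in STZ-treated pups. No member passed in any class by edgeR's quasi-likelihood test, at a background of 0.0163% of 12234 genes in rods and 0% in the other classes. Of the 20 tests of members over the 5 classes, 8 had an unadjusted p under 0.05: 1 of 4 in rods (10.4% of all genes tested), 1 of 3 in cones (8.03%), 3 of 5 in amacrine cells (9.89%), 2 of 4 in bipolar cells (4.21%) and 1 of 4 in Müller glia (3.56%). DESeq2 called 3, all of them Malat1, among 22 genes called in rods, 7 in amacrine cells and 2 in cones. The mean level of Malat1 was lower in ω-6 mice in each of the 5 classes. In amacrine cells it was at 916 and 1177 CPM in the ω-3 mice and at 577, 432 and 421 CPM in the ω-6 mice. The groups did not overlap in rods, cones, bipolar cells and amacrine cells, as for 20.6%, 15.1%, 12.4% and 18.9% of the genes tested that lay lower in ω-6 mice. The log2 fold change was -1.05 in amacrine cells (SE 0.16, unadjusted p = 1.4e-05, adjusted p = 0.18 from edgeR). It was -0.81 in rods (1005 and 1610 against 858, 608 and 616 CPM, adjusted p = 0.39), -0.93 in cones (1169 and 1698 against 790, 749 and 660 CPM, adjusted p = 0.36) and -0.76 in bipolar cells (1100 and 1254 against 759, 637 and 602 CPM, adjusted p = 0.99).

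In Müller glia Malat1 was at 1159 and 1889 CPM in ω-3 and 1212, 832 and 669 CPM in ω-6 mice, with overlap, and the log2 fold change was -0.70 (SE 0.24, adjusted p = 0.99). DESeq2 called Malat1 in rods (adjusted p = 0.016), in cones (0.0025), in amacrine cells (2.7e-05) and over all cells (0.0059), and not in bipolar cells or Müller glia. Without ω-3 mouse 1, edgeR called Malat1 in rods (-1.14, adjusted p = 0.0093), cones (-1.18, 0.0078) and amacrine cells (-1.22, 0.0090). With no filter on low counts it called Malat1 in rods (adjusted p = 1.7e-05), cones (5.1e-05), amacrine cells (3.1e-10) and bipolar cells (0.049). The call thus depends on the test, the filter and 1 mouse, and the SD between the 2 ω-3 mice was 428 CPM in rods.

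Snhg11 in amacrine cells was at 274, 284 and 279 CPM in ω-6 and at 359 and 514 CPM in ω-3 mice, without overlap, and its log2 fold change of -0.56 (SE 0.16, unadjusted p = 0.0035, adjusted p = 0.42) did not pass. It also lay lower in ω-6 mice without overlap in rods (36.3 to 56.6 against 56.7 to 59.6 CPM), bipolar cells (41.2 to 43.9 against 57.8 to 59.3) and Müller glia (33.5 to 39.3 against 48.3 to 61.0). In cones the groups overlapped. Of all genes tested, 18.9% in amacrine cells, 20.6% in rods, 12.4% in bipolar cells and 12.5% in Müller glia lay lower in this way. Meg3 in amacrine cells, at 2021, 1877 and 1868 against 2325 and 2567 CPM, gave -0.27 (SE 0.10, adjusted p = 0.49). Miat in bipolar cells was at 44.1 CPM in ω-3 mouse 1 and at 8.99 CPM in ω-3 mouse 2, beside 5.53, 5.99 and 10.3 CPM in ω-6 mice, so the fitted -1.84 (SE 0.65, adjusted p = 0.99) rests on ω-3 mouse 1. That mouse also had the highest Miat level in Müller glia, 49.6 CPM, and over all cells, 22.0 CPM. Neat1 in amacrine cells gave -1.09 (SE 0.51, adjusted p = 0.51) from 18, 15, 5, 14 and 4 UMIs.

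Of the other genes of the Dlk1-Dio3 cluster, 5 of 6 had a row and 2 could be tested in amacrine cells. Of these, 1, Rian, rose in Phase I ROP, as did 18.3% of all genes tested there. Rian, the long noncoding RNA downstream of Meg3, was at 122 to 210 CPM in control and 364 to 454 CPM in Phase I ROP amacrine cells, a log2 fold change of 0.84 (SE 0.17, adjusted p = 0.0017). Its change in amacrine cells exceeded that in rods by 2.48 (adjusted p = 0.0059). Rian was also the gene whose level was most like that of Meg3 over the 55 sums of 11 mice and 5 classes, with a Pearson correlation of 0.92 of log2(CPM + 1), followed by Zcchc18 and Rnf187 with 0.89 each. For Snhg11 the genes most alike were Grm2, Gad1 and Tfap2a (0.89, 0.89 and 0.88), for Miat they were Marcksl1, Brinp2 and Marcks (0.84, 0.84 and 0.83), and for Malat1 Gm37376 (0.81), Asl and Rplp1. These sums share mice, libraries and depth, and 11566 genes were ranked. Among members, Meg3 was most like Miat (0.63) and Snhg11 (0.57).

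Among 36 paraspeckle proteins, the partners of Neat1, 33 could be tested in bipolar cells, where 6 rose and 6 fell in Phase I ROP, and their median log2 fold change of 0.03 stood beside 0.02 for all genes. Rbm14 (1.58), Ss18l1 (1.32) and Rbm12 (1.10) rose and Matr3 (-1.29) fell, and Sfpq, a core paraspeckle protein, rose in rods (1.02, SE 0.26, adjusted p = 0.0053) and bipolar cells (0.59, SE 0.15, adjusted p = 0.0056). Of 26 nuclear speckle and splicing proteins, the neighbours of Malat1, 2 rose and 8 fell in bipolar cells, with a median of -0.17 beside 0.02, 0 rose and 6 fell in amacrine cells, with a median of -0.14 beside 0.02, and 5 rose and 4 fell in rods, with a median of 0.28 beside 0.06. In bipolar cells U2af1, which reads the 3′ splice site, changed by -1.82, Rbm25 by -0.98, Srsf3 by -0.97 and Srsf4 by 1.13. The background share of genes that rose was 21.3% (bipolar), 18.3% (amacrine) and 19.2% (rods). The share that fell was 23.9% (bipolar), 20.5% (amacrine) and 19.5% (rods). The difference in balance of the speckle list between these classes was not tested.

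The 3 proteins known to bind Miat all rose in bipolar cells of Phase I ROP mice: the splicing factors Qk (0.95), Sf1 (0.88) and Celf3 (0.68), with a median of 0.88 beside 0.02 for all genes. They also rose in amacrine cells, and in rods 0 of 3 passed. The background share of genes that rose was 21.3% (bipolar), 18.3% (amacrine) and 19.2% (rods). Of the other small nucleolar RNA hosts, 13 could be tested in bipolar cells, where 1 rose (Snhg15, 1.52) and 4 fell, among them Snhg17 (-2.49), Snhg3 (-1.31) and Snhg20 (-0.93). Snhg11 fell there too, as did 23.9% of all genes tested. Of the other long noncoding RNAs of neurons and retina, 15 could be tested in amacrine cells, where 6 rose and 4 fell, with C130071C03Rik (1.30) and 2900097C17Rik (1.11) among those that rose and Pantr1 (-1.36) and Dleu2 (-1.32) among those that fell. Among all genes tested in amacrine cells, 18.3% rose and 20.5% fell. Between ω-6 and ω-3 mice no gene of these 6 lists passed in any class, where 0.0163% of all genes passed in rods and 0% in the other classes.

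Immediate early and mitochondrially encoded genes also differed between Phase I ROP and control mice. Treatment and library preparation cannot be told apart as the source of these differences. Of 13 immediate early and dissociation genes, 10 of 10 tested rose in rods and in amacrine cells, 8 of 8 in cones, 9 of 12 in Müller glia and 6 of 7 in bipolar cells. Of the 13 mitochondrially encoded proteins, 10 fell in rods, 11 in cones, 13 in amacrine cells, 12 in bipolar cells and 1 in Müller glia. Of all genes tested, 10.8% passed in Müller glia, in which no member passed, and 18.8% to 45.3% in the other classes. The median log2 fold change of the mitochondrial list in Müller glia was -0.59, beside 0.00084 for all genes. The part of either list in the results of the members was not tested.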

How the data were processed

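The deposited table held UMI counts per gene and cell, made by the authors with the inDrop v3 pipeline of bcbio-nextgen and Rapmap on GENCODE transcripts of GRCm38 (mm10); barcodes with fewer than 500 reads were removed by the authors. Cells with more than 300 genes were clustered with Seurat 5.3.0 as in the study: genes in more than 10 cells, log normalization to 10000, 2000 variable genes, 75 of 100 principal components and resolution 0.2. Clusters were named from fixed markers. The cluster led by ribosomal RNA transcripts was left unnamed by a rule set after its values were seen. Scrublet marked 0.359% of cells. This share was taken as too low to rely on, so no doublets were removed. An alternative dropped the 5% with the highest scores.

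Counts were summed per mouse and class, with at least 10 cells in each mouse, and tested with edgeR 4.0.16 (quasi-likelihood, TMM scaling, its filter on low counts, Benjamini-Hochberg over all genes, threshold 0.05) on the compared groups only. The study tested single cells with MAST, which treats cells as replicates and was not used. The fits were tested on simulated data. Alternatives were DESeq2 1.42.0, other scalings and filters, other cell sets, a replicate block and each mouse left out. Correlations used log2(CPM + 1) and genes of at least 10 CPM on average. Intervals are exact Poisson at 95% and cover counting error only.

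The members and lists were chosen with earlier results of these data known. Named genes were the members, the 3 genes most alike each, and up to 4 called genes with the largest change per list, in the class with the most calls; Sfpq in rods and bipolar cells was chosen after its values were seen. Sequences and coordinates come from the GENCODE M21 transcripts and annotation of GRCm38.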

Additional observations from a re-analysis of the deposited data

Results flagged for a closer look

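The values below are given because the change between Phase I ROP and control mice differed between rods and another cell class by the interaction test of edgeR (adjusted over all genes). Each is the log2 change in the other class minus that in rods, over the same 6 mice.

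For Meg3 the difference was 2.78 in amacrine cells, 2.65 in bipolar cells and 2.33 in Müller glia. For Snhg11 it was 2.12 in amacrine cells and 1.69 in Müller glia. For Malat1 it was 0.64 in amacrine cells and 0.83 in Müller glia. Control rods numbered 216, 133 and 411 cells and Phase I ROP rods 1004, 600 and 1213, so the rod values of the sparse RNAs rest on the fewest cells in the control mice.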

How the results depend on the processing

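Of the recomputed values between Phase I ROP and control mice, 284 kept their direction and their side of the threshold, 19 lost and 2 gained a call and 5 turned. For ω-6 against ω-3 these numbers were 320 kept, 14 gained and 20 turned, and for the difference between classes 102, 22 lost, 1 gained and 1 turned. Malat1 and Snhg11 in rods and Meg3 in amacrine and bipolar cells kept their calls in every alternative, with log2 fold changes of -2.20 to -0.67, -2.34 to -1.45, 0.91 to 1.38 and 0.77 to 1.31. The cause of the changes below was not tested.

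The log2 fold change of Snhg11 in Müller glia in Phase I ROP turned with DESeq2 (0.0048), UMI totals alone (0.14), without the highest doublet scores (0.21) and with 1 mouse left out (-0.29 to 0.22). Between ω-6 and ω-3, Meg3 in rods (0.10) turned with UMI totals alone (-0.020), the replicate block (-0.036), without the highest doublet scores (-0.019) and with 1 mouse left out (-0.35 to 0.67). Meg3 in bipolar cells (-0.12) turned with the block (0.10) and 1 mouse left out (-0.37 to 0.18), Neat1 over all cells (-0.17) with the block (0.047) and 1 mouse left out (-0.34 to 0.041), and Snhg11 in cones (-0.03) without the highest doublet scores (0.033) and with 1 mouse left out (-0.23 to 0.21). Leaving out 1 mouse also turned Meg3 over all cells (-0.27 to 0.094), Neat1 in rods (-0.16 to 1.49), and Miat in Müller glia (-1.47 to 0.10) and over all cells (-1.29 to 0.13). The difference of Malat1 between bipolar cells and rods turned without the highest doublet scores (-0.00044).

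In the diet comparison DESeq2, no filter on low counts and the replicate block called 3, 4 and 2 members over the 5 classes. The genes called under these were 22, 106 and 37 in rods (2 in the reported fit, 8 with all 4 groups in 1 fit, 0 with cells of more than 500 genes), 7, 139 and 60 in amacrine cells, 2, 18 and 17 in bipolar cells, 2, 12 and 22 in cones and 2, 9 and 10 in Müller glia, and over all cells 23 with DESeq2 and 75 with the block. In Phase I ROP, cones had 961 calls with all 4 groups in 1 fit (587 reported), amacrine cells 2853 with clusters named from leading genes only (4391) and Müller glia 309 with DESeq2 (526). For the difference from rods, no filter left 4 of 7 members called. The clusters named from leading genes and the ribosomal RNA cluster counted as rods were alternatives chosen after seeing the data, as was scaling by UMI totals alone. Genes called there were 122, 464 and 195 for bipolar cells, amacrine cells and Müller glia with clusters named from leading genes (242, 700 and 356 reported), and 543 and 1114 for the first 2 classes when the ribosomal RNA cluster counted as rods.

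With each mouse left out in turn, the members called were 7 to 10 in Phase I ROP, 0 to 3 in the diet comparison (3 without ω-3 mouse 1) and 3 to 6 for the difference from rods. Genes called in Phase I ROP ranged over 2074 to 3064 in rods, 276 to 649 in cones, 3623 to 4399 in bipolar cells, 3349 to 4189 in amacrine cells, 265 to 420 in Müller glia and 6094 to 7598 over all cells. In the diet comparison they ranged over 1 to 6 in rods, 0 to 3 in cones, 0 in bipolar cells, 0 to 5 in amacrine cells, 0 to 4 in Müller glia and 0 to 2 over all cells. For the difference from rods they were 97 to 258 for bipolar cells, 392 to 724 for amacrine cells and 142 to 340 for Müller glia.

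The titles number the mice. Over all cells, deviations of same-numbered Phase I ROP and control mice correlated by -0.03 to 0.15, so these numbers were not taken to pair mice. Those of ω-6 and ω-3 mice correlated by 0.049 to 0.29 over all cells and by 0.10 to 0.29 in bipolar cells, but by -0.0053 to 0.14 in rods. They come from 2 shared numbers only and no label ties a number to a litter, so they too were not used as pairs. With the replicate block 10 members were called in Phase I ROP, as without it, and in the diet comparison Malat1 was called in cones (-0.84, adjusted p = 5.4e-05), in amacrine cells (-0.99, 4.3e-09) and over all cells (-0.79, 0.013). Depth limits Neat1 and Miat, with 106 and 4 UMIs in rods, and Meg3 in control cones.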
